A study of Mus musculus with 12 samples.

Results

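The regions described here carried a peak of histone H3 acetylation at K9 and K14 (H3K9/14ac) in fibro-adipogenic progenitors (FAPs) of young trichostatin A (TSA) treated mdx mice, and no peak in the young vehicle, old TSA or old vehicle library. They were found by merging the 4 deposited H3K9/14ac peak lists, with peaks that overlapped by 1 bp or touched joined into 1 region, over chromosome 1 and chromosome 2 up to position 167064301 of build GRCm38, the stretch that all 4 lists cover. Of 3670 merged regions, 626 met this rule, and each of them was a single young TSA peak. That is 17.1% of the merged regions, a share fixed by the rule and given as a description. The members lay on both chromosomes, with 263 of the 1635 regions of chromosome 1 (16.1%) and 363 of the 2035 regions of chromosome 2 (17.8%).

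The mdx mouse lacks dystrophin and is the usual mouse model of Duchenne muscular dystrophy. FAPs are mesenchymal cells of the muscle interstitium that help regeneration and can become fibroblasts or adipocytes. Acetylation of H3K9, H3K14 and H3K27 is placed by histone acetyltransferases, removed by histone deacetylases (HDACs) and read by bromodomain proteins, and it marks active promoters and enhancers. TSA is a hydroxamic acid that inhibits class I and class II HDACs. H3K9/14ac gathers at starts of genes, which in mammals often lie in stretches rich in CpG dinucleotides, while H3K27ac marks active enhancers as well as promoters.

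The libraries came from FAPs sorted by FACS from muscle of C57Bl6 mdx mice. The young TSA mice were 1.5 months old and received 0.6 mg/kg TSA daily by intraperitoneal injection for 15 days, and the young vehicle mice of the same age received saline. The old TSA and old vehicle mice were 12 months old and were treated in the same 2 ways. Every group carried the mdx mutation, and each mark had 1 library per group, so no comparison between groups has a replicate check and no p-value is given. The labels do not say how many animals went into a library. Intervals below are exact 95% Clopper-Pearson intervals, which cover counting error only.

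Sequences at 8 starts of genes that carried a member are shown first, since their CpG content and H3K27ac were not used by the rule and recur in the results below. A promoter window here is the stretch from 250 bases before to 50 bases after an annotated start, 300 bases in all, taken from RefSeq (GRCm38.p6) and written 5′ to 3′ on the gene's strand, with each CpG dinucleotide in capitals. The first 6 windows belong to genes whose young TSA peak had no H3K27ac peak in any of the 4 libraries. They are Mybl2, a transcription factor of the cell cycle programme (chr2:163054385-163054684, plus strand, 26 CpG), Sema6d, a transmembrane semaphorin (chr2:124089719-124090018, plus strand, 14 CpG), Pak6, a p21-activated kinase (chr2:118676996-118677295, plus strand, 35 CpG), Prkcq, the protein kinase C theta of T cell receptor signalling (chr2:11172132-11172431, plus strand, 37 CpG), Bub1, a kinase of the spindle checkpoint (chr2:127831810-127832109, minus strand, 23 CpG), and Cenpf, a kinetochore protein (chr1:189688037-189688336, minus strand, 31 CpG). The last 2 are members at CpG-poor windows, shown for contrast, namely Lcn2, the secreted siderophore-binding lipocalin 2 (chr2:32387690-32387989, minus strand, 3 CpG), and Ecrg4, which encodes a secreted peptide precursor (chr1:43730352-43730651, plus strand, 5 CpG).
Mybl2: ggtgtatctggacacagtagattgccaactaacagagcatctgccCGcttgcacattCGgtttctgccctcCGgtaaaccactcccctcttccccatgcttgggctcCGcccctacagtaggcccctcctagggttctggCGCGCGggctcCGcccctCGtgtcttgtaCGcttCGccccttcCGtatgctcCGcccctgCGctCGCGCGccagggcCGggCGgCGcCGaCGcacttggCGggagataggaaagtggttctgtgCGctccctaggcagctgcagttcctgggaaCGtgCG
Sema6d: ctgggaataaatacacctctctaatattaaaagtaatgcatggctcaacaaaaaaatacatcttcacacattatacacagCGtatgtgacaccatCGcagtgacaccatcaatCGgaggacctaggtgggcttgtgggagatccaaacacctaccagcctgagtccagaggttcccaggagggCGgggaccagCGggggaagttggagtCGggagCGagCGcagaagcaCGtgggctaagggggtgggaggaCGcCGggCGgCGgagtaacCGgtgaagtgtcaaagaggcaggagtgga
Pak6: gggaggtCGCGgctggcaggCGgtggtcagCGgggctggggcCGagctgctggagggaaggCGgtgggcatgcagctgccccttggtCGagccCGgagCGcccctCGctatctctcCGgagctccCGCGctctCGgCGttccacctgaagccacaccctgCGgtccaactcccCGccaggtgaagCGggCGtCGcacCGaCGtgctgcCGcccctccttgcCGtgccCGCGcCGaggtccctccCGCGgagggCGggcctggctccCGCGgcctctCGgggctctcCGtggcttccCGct
Prkcq: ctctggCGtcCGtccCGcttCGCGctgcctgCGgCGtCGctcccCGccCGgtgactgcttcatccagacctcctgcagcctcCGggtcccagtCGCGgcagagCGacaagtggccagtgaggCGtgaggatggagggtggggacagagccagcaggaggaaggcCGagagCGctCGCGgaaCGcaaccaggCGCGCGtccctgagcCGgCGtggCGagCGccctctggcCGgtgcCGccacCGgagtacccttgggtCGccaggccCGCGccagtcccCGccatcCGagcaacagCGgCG
Bub1: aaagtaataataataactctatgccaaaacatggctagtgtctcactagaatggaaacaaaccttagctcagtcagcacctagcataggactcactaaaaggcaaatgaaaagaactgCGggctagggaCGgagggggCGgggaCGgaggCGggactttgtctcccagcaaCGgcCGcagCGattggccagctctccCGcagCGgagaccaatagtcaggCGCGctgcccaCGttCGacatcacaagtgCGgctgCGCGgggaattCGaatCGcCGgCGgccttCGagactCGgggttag
Cenpf: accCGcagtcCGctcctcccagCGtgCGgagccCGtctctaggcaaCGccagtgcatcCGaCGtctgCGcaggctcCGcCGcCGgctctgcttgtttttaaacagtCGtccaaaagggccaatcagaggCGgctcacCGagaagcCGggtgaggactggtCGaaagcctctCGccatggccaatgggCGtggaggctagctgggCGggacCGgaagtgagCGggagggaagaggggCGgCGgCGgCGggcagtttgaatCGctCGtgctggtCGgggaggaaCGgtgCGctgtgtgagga
Lcn2: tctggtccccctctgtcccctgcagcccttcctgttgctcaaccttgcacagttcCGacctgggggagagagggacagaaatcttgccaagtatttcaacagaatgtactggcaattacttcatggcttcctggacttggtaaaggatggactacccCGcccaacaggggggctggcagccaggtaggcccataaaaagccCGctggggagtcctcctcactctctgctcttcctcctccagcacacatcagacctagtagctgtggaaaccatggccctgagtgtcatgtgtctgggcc
Ecrg4: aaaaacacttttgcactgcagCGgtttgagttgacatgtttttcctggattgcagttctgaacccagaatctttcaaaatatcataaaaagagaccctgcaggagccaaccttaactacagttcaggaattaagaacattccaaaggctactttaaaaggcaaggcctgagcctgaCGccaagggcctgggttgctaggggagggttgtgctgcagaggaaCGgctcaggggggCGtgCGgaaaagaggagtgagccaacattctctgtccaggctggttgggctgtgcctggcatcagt

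The young TSA list was the longest of the 4 H3K9/14ac lists in this stretch, with 3336 peaks holding 631446 tags, against 2711 peaks and 452476 tags for young vehicle. The old TSA list held 2474 peaks and 426273 tags, and the old vehicle list held 3235 peaks and 608674 tags. A tag is 1 aligned read that the peak caller counted in a peak. The libraries did not order by treatment or age. Of the 2901 merged regions with a young TSA peak, 2117 (73.0%) also had an old vehicle peak, 1951 (67.3%) an old TSA peak and 1873 (64.6%) a young vehicle peak. Seen from the other library, those were 81.6% of the old vehicle regions, 89.2% of the old TSA regions and 87.6% of the young vehicle regions. A further 195 regions had peaks in young TSA and old vehicle and in neither of the other lists, against 55 in the 2 young lists alone and 68 in the 2 TSA lists alone. Whether a library was exchanged was not tested. H3K9/14ac peaks marked the ends of 4 of 6 FAP identity genes in young TSA, 3 in young vehicle, 3 in old TSA and 4 in old vehicle. Ends of muscle fibre genes were marked at 2 of 15 genes in young TSA and at 1 of 15 in each of the other libraries. For 10 macrophage genes these counts were 5 in young TSA, 4 in young vehicle, 5 in old TSA and 5 in old vehicle. For 11 endothelial genes they were 8 in young TSA and 7 in each of the others, and for 14 lymphocyte genes 5 in young TSA, 3 in young vehicle, 2 in old TSA and 3 in old vehicle. Of 5 pericyte and smooth muscle genes, 4 were marked in young TSA, 3 in young vehicle, 3 in old TSA and 4 in old vehicle. Of 21 Schwann cell and nerve genes the counts were 7, 6, 8 and 5 in the same order, and of 2 muscle stem cell genes 1 in each library. The share over all protein-coding genes is not given, and the lists differ in length. These counts therefore identify neither a cell type nor a difference between libraries. The part of other cell types in the regions described here was not tested.

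Absence of a peak means that the list of a library held none, not that no tags fell there, and tags outside peaks were not analysed here. The members nearest to the border of the rule show how fine that distinction can be. Just inside were a 33-tag peak in Wipf1 (chr2:73512793-73512989), 3 bp from a peak of another library, a 49-tag peak outside genes (chr2:74907144-74907433), 4 bp away, and a 40-tag peak in Zmynd8 (chr2:165874001-165874286), also 4 bp away. Just outside were a 35-tag peak in Nav1 (region chr1:135669361-135669782) and a 49-tag peak in Dlgap4 (region chr2:156740967-156742112), which touched old vehicle peaks by 5 and 6 bp. A 64-tag peak in Fam110a (region chr2:151973489-151974240) overlapped a young vehicle peak by 11 bp. Of the 626 members, 74 lay within 200 bp of a peak of another H3K9/14ac library, 194 within 1000 bp, 310 within 5000 bp and 460 within 20000 bp. When each list was trimmed to the 2474 peaks with most tags, the length of the shortest list, 194 regions met the rule.

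The members were small and weak peaks of their own library. They held 20 to 169 young TSA tags with a median of 43 (quartiles 35 and 56), over a width of 147 to 1723 bp with a median of 301 bp. The 1709 regions with a peak in all 4 libraries held 30 to 1683 young TSA tags with a median of 287, over a median width of 1501 bp. Peaks found in 1 other library alone were of the same small kind. The 340 old vehicle only regions (9.26% of all regions) had a median of 56 tags over 309 bp, the 143 young vehicle only regions (3.9%) a median of 40 tags over 254 bp, and the 121 old TSA only regions (3.3%) a median of 38 tags over 299 bp. Per kilobase the median was 140 tags for the members, 179 for old vehicle only, 153 for young vehicle only and 125 for old TSA only regions. Members of median strength included 43-tag peaks in Frmd4a (chr2:4562509-4562850), Etl4 (chr2:20521797-20522172) and Rapgef1 (chr2:29660642-29660909).

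**Figure D1:**
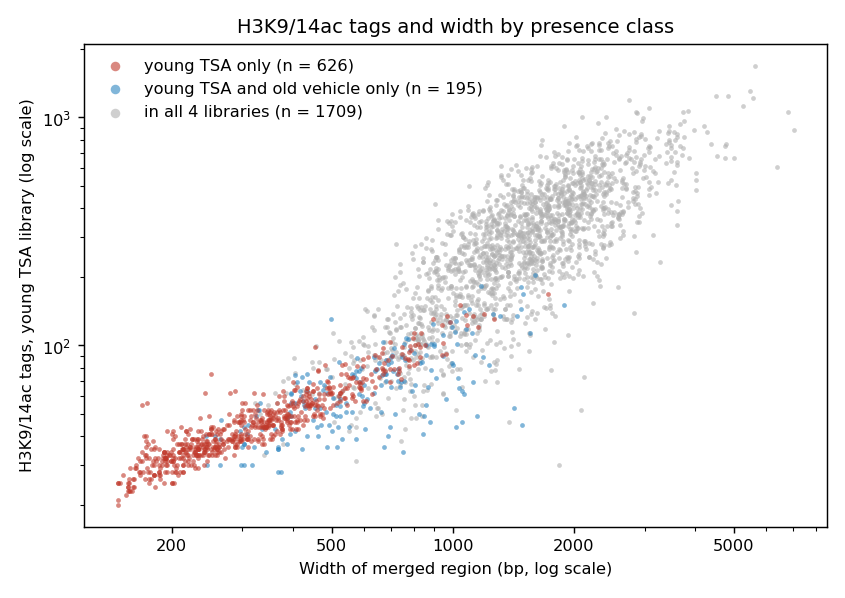
Each point is 1 merged region, with its width in bp on the x axis and its H3K9/14ac tags in the young TSA library on the y axis, both on log scales. The 626 young TSA only regions (red) sit between 20 and 169 tags, below most of the 1709 regions found in all 4 libraries (grey, median 287 tags), and the 195 regions shared with old vehicle alone (blue) lie between them.

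Few members lay at ends of genes. With a gene end taken as 1000 bp either side of an annotated end of a protein-coding gene, 107 of 626 members touched one (17.1%, interval 14.2 to 20.3), 371 lay inside a gene away from its ends (59.3%) and 148 lay outside genes (23.6%). Of the regions in all 4 libraries, 1303 of 1709 touched a gene end (76.2%), 17.0% lay inside a gene and 6.79% outside. The old vehicle only regions had a distribution like that of the members, with 11.5% at gene ends, 66.8% inside and 21.8% outside. Promoter windows were touched by 50 members (7.99%), against 19 old vehicle only regions (5.59%) and 72.4% of the regions in all 4 libraries. Of the members, 177 (28.3%) lay within 5000 bp of a region found in all 4 libraries, at a median gap of 15231 bp, and the share was 30.3% for old vehicle only, 44.1% for young vehicle only and 43.0% for old TSA only regions.

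The members at starts of genes mostly lacked H3K27ac. Of the 50 members at promoter windows, 45 had no H3K27ac peak in any of the 4 H3K27ac libraries (90.0%, interval 78.2 to 96.7). Over all regions at promoter windows 255 of 1495 had none (17.1%), and over the regions in all 4 libraries 91 of 1237 (7.36%). The share without H3K27ac was 72.0% of the 107 members at gene ends, 41.5% of the 371 inside genes and 52.0% of the 148 outside genes, while in the regions found in all 4 libraries it was 7.9%, 6.55% and 15.5% at these positions. Other regions at promoter windows that few libraries shared also often lacked H3K27ac. This was so at 13 of 19 old vehicle only regions (68.4%, interval 43.4 to 87.4) and 18 of 25 with peaks in young TSA and old vehicle alone (72.0%, interval 50.6 to 87.9). It was also so at 8 of 13 old TSA only (61.5%, interval 31.6 to 86.1) and 4 of 8 young vehicle only regions (50%, interval 15.7 to 84.3). Each of these intervals overlaps that of the members. Among members at promoter windows, 40 of 50 (80.0%) also had no H3K27ac peak within 1000 bp.

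**Figure D2:**
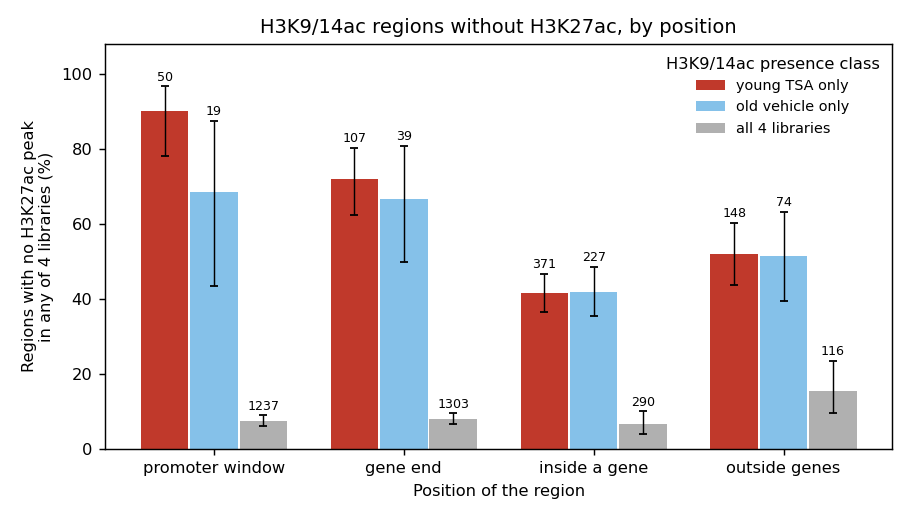
Bars give the percentage of H3K9/14ac regions with no H3K27ac peak in any of the 4 H3K27ac libraries, by position, with exact 95% intervals and the number of regions above each bar. Young TSA only regions reach 90.0% at promoter windows and 41.5% inside genes, old vehicle only regions 68.4% and 41.9%, and regions in all 4 libraries 7.36% and 6.55%.

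The windows touched by members were rich in CpG dinucleotides, as the printed sequences show for Mybl2, Pak6, Prkcq, Bub1 and Cenpf. In all, 47 windows of 43 genes were touched by members and by no other H3K9/14ac region. The overlap ran from 1 bp (Nckap5 and Sfmbt2) to all 300 bases, and was 66 bp at Bub1 and 112 bp at Sema6d. CpG and motifs were counted over the whole window, so they also describe bases outside the peak. They held a median of 21 CpG (range 3 to 51) at a median GC content of 64.0%. That is near the median of 22 CpG in the 1578 windows touched by regions of all 4 libraries, and above the median of 3 in the 2673 windows with no H3K9/14ac peak and of 7 in all 4539 windows of the stretch. The 15 windows of old vehicle only regions had a median of 9 CpG, the 5 of young vehicle only regions 6 and the 9 of old TSA only regions 10. The ratio of observed to expected CpG exceeded 0.6 in 33 of the 47 windows (70.2%), against 79.7% of the windows of regions in all 4 libraries, 26.7% of those of old vehicle only regions and 8.64% of those with no H3K9/14ac peak. H3K27ac peaks overlapped 2 of the 47 windows (4.26%), against 91.4% of the windows of regions in all 4 libraries and 3.74% of the windows without H3K9/14ac. In CpG content these windows were thus near those of regions in all 4 libraries, and in H3K27ac near those without an H3K9/14ac peak. These are differences between sets of windows in single libraries and were not tested.

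**Figure D3:**
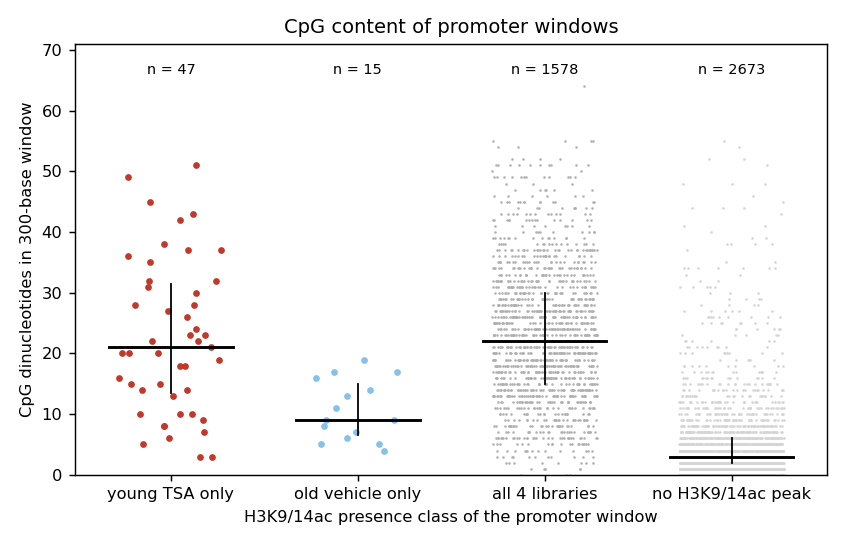
Each point is 1 promoter window of 300 bases, with the number of CpG dinucleotides on the y axis, grouped by the H3K9/14ac regions that touch the window. Horizontal lines are medians and vertical lines quartiles. Windows touched by young TSA only regions (red, n = 47, median 21) lie at the height of those touched by regions of all 4 libraries (n = 1578, median 22), while windows of old vehicle only regions have a median of 9 and windows without a peak a median of 3.

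Short motifs were counted in the same windows on both strands. The GC box GGGCGG, bound by Sp family factors, occurred in 39 of the 47 windows (83.0%), against 66.3% of the windows of regions in all 4 libraries and 34.9% of all 4539 windows. The E2F core GCGGGAA occurred in 12.8% of the 47 windows, 8.75% of those of regions in all 4 libraries and 4.25% of all windows. The CCAAT box (38.3% against 35.1% of all windows), the AP-1 site TGANTCA (8.51% against 8.66%) and the E box CACGTG (6.38% against 6.43%) were near the frequency in all windows. The GC box, the E2F core and the E box each contain a CpG, so their frequencies are not separate from CpG content, and some windows of 1 gene overlap. The TATA box TATAAA was found in 6.38% of the 47 windows and in 14.0% of all windows. A match describes the letters of the window and is not a binding site.

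Of the 10 members with most tags among those that touched gene ends, 8 had no H3K27ac peak in any library. Those at Dgkz, Large2, Cox4i2, Dll4 and Kcne4 touched no promoter window. The Mybl2 peak (chr2:163054360-163055402) held 151 young TSA tags over 1043 bp, covered the whole promoter window printed above, and lay 36243 bp from the nearest peak of another H3K9/14ac library. The Sema6d peak (chr2:124089907-124091026) held 135 tags and was 518506 bp from the nearest such peak. The Prkcq peak (chr2:11171961-11172559) held 87 tags and was 327422 bp away. Each of these 3 starts was thus without H3K9/14ac in the young vehicle, old TSA and old vehicle lists and without H3K27ac in any list. At an annotated end of Slc1a2, the main glutamate transporter of astrocytes, 96 tags were counted (chr2:102658410-102659195), in a region 107084 bp from other libraries. Spint1, an inhibitor of membrane serine proteases, had 94 tags (chr2:119237093-119237872). Cox4i2, an isoform of a cytochrome c oxidase subunit, had 91 tags (chr2:152753656-152754597). The diacylglycerol kinase gene Dgkz had 102 tags (chr2:91975527-91976344) and Large2, which encodes a glycosyltransferase of alpha-dystroglycan, 97 tags (chr2:92370694-92371363). These are the 8 members without H3K27ac. The 2 with H3K27ac were the 79-tag member near the Notch ligand gene Dll4 (chr2:119335715-119336429), where H3K27ac peaks held 202 tags in young TSA, 181 in young vehicle, 155 in old TSA and 118 in old vehicle, and the 78-tag member at Kcne4, an accessory subunit of potassium channels (chr1:78820338-78820800), with 280, 534, 804 and 459 H3K27ac tags in the same order of libraries.

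About as many members had H3K27ac in the other libraries as in young TSA, old vehicle excepted. An H3K27ac peak overlapped 245 of the 626 members in young TSA (39.1%, interval 35.3 to 43.1), 275 in young vehicle (43.9%), 265 in old TSA (42.3%) and 168 in old vehicle (26.8%). Over all 3670 regions the shares were 65.7% in young TSA, 69.5% in young vehicle, 69.6% in old TSA and 58.1% in old vehicle. For the old vehicle only regions they were 37.1% in young TSA, 43.5% in young vehicle, 46.5% in old TSA and 35.9% in old vehicle. The H3K27ac lists themselves differed in length in the stretch, with 4325 peaks in young TSA, 5791 in young vehicle, 5564 in old TSA and 4210 in old vehicle, and the shares at the members stood in the same order as these lengths. No H3K27ac peak in any library was found at 308 members (49.2%, interval 45.2 to 53.2), against 159 old vehicle only regions (46.8%), 140 regions of all 4 libraries (8.19%) and 937 of all regions (25.5%). H3K27ac in all 4 libraries was found at 152 members (24.3%).

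**Figure D4:**
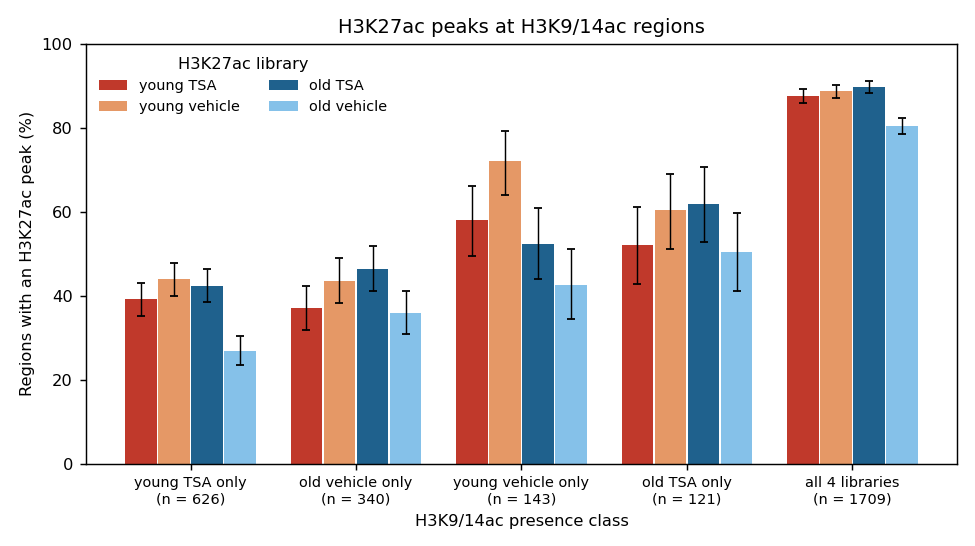
Bars give the percentage of H3K9/14ac regions overlapped by an H3K27ac peak of each library, by the set of libraries with an H3K9/14ac peak, with exact 95% intervals. At the 626 young TSA only regions the shares are 39.1% in young TSA, 43.9% in young vehicle, 42.3% in old TSA and 26.8% in old vehicle, and each is below the share for regions in all 4 libraries.

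The contrast closest to the rule in the other mark is that between young TSA and young vehicle. An H3K27ac peak in at least 1 of these 2 libraries was found at 293 of the 626 members and at 2614 of all 3670 regions. An H3K27ac peak in young TSA with none in young vehicle was found at 18 members (2.88%), against 1.69% of all regions. The opposite, a young vehicle peak with none in young TSA, was found at 48 members (7.67%), against 5.56% of all regions. Over all regions these counts were 62 and 204. Set against the 293 members and 2614 regions with a peak in either library, a peak in just 1 of the 2 was more frequent at members. In the old mice an old TSA peak without an old vehicle peak was found at 106 members (16.9%), against 12.1% of all regions, and an old vehicle peak without an old TSA peak at 9 (1.44%), against 0.654%. A peak in either old library was found at 274 members and at 2578 of all regions. Where both young libraries had an H3K27ac peak, at 227 members, the tags of the overlapping peaks were near equal once centred on the 2702 H3K27ac regions of all 4 libraries, with a median log2 ratio of young TSA over young vehicle of -0.04 (quartiles -0.32 and 0.20) and 103 members above 0. Over the 293 members with a peak in either library the median was -0.09, against 0.01 for the 2614 regions of that kind. Ratios above 1 on the log2 scale were found at 28 members (9.56%, against 3.71%) and below -1 at 59 (20.1%, against 11.1%). Below -1 were also 27.4% of old vehicle only, 25.7% of young vehicle only and 20.5% of old TSA only regions. Above 1 were 5.73%, 2.86% and 1.37% of these, in the same order. With tags counted in proportion to the overlap, in place of the whole H3K27ac peak, the median over the 293 members was 0.12, so its sign depends on that choice. In the old mice, at the 159 members with an H3K27ac peak in both libraries, the centred median log2 ratio of old TSA over old vehicle was 0.28 (quartiles 0.05 and 0.85), against 0.05 over 2110 regions. With tags in proportion to the overlap it was -0.13, against -0.05, so no direction can be read from it either.

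H3K27ac in young TSA and in no other library was found at 10 members (1.6%), against 0.545% of all regions. The share was 1.4% of young vehicle only regions (2 of 143), 0.882% of old vehicle only regions (3 of 340) and 0% of old TSA only regions (0 of 121). Of these 10 members, the one with most H3K27ac tags lay outside genes (chr1:182110607-182110853). It held 109 H3K27ac and 33 H3K9/14ac tags in young TSA. A young vehicle H3K27ac peak lay 126 bp from it. Others lay in Rcsd1, which encodes an actin capping protein regulator (89 H3K27ac tags), in the anti-apoptotic gene Bcl2 (86), in Mvb12b, a subunit of the ESCRT-I sorting complex (82), in the plasma membrane calcium pump gene Atp2b4 (70), in Neurl3 (69), in Notch1 (54), in Frmd4a (53), in Eef1aknmt (52) and in Fam78a (49). In Bcl2 the nearest old TSA and old vehicle H3K27ac peaks were 58 and 32 bp away, and in Frmd4a a young vehicle one was 293 bp away. At these members and at the one outside genes, the absence rests on the ends of called peaks. Among members with an H3K27ac peak in young vehicle and none in young TSA, the one with most young vehicle H3K27ac tags lay in Prrx1. This gene encodes a transcription factor of FAPs and other mesenchymal cells. Its 39-tag member (chr1:163308772-163308973) was overlapped by an H3K27ac peak of 1370 tags in young vehicle and 141 in old TSA, counted over the whole peak. None overlapped it in young TSA or old vehicle, whose nearest peaks were 735 and 67 bp away. Here too the absence rests on the ends of called peaks.

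Some genes held several members. A member lay in or at the end of 329 of the 2825 protein-coding genes of the stretch (11.6%), 90 genes had 2 or more and 34 had 3 or more. Another member lay within 10000 bp of 203 members (32.4%), against 79 of the old vehicle only regions (23.2%), 19 of the young vehicle only (13.3%) and 18 of the old TSA only regions (14.9%), sets that are smaller and so have fewer chances of a neighbour. Counting members in a gene or within 10000 bp of it, Itpkb had 12, Tns1 9, Sox13 and Zmynd8 8 each, and Dab2ip, Niban2 and Notch1 6 each. Long genes offer more room, and these genes span from 42160 bp (Sox13) to 214317 bp (Tns1).

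Itpkb encodes an inositol trisphosphate kinase (chr1:180330390-180424802, plus strand). Its 12 members held 30 to 114 young TSA tags. Within the gene and its flanks there were 23 H3K9/14ac peaks in young TSA, of which 12 are the members and absent elsewhere by the rule. The remaining 11 stood beside 12 in young vehicle, 6 in old TSA and 14 in old vehicle. H3K27ac peaks overlapped 4 of the 12 members in young TSA, 8 in young vehicle, 7 in old TSA and 4 in old vehicle.

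Tns1, which encodes the focal adhesion protein tensin 1 (chr1:73910232-74124548, minus strand), had 9 members of 30 to 86 tags. Beside the members, 22 H3K9/14ac peaks lay there in young TSA, 11 in young vehicle, 13 in old TSA and 30 in old vehicle. H3K27ac overlapped 7 of the 9 members in young TSA, 7 in young vehicle, 6 in old TSA and 6 in old vehicle. Zmynd8, a reader of acetylated histones (chr2:165784152-165898981, minus strand), had 8 members of 31 to 56 tags, with H3K27ac at 7, 6, 7 and 5 of them in the same order.

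Sox13, a SoxD transcription factor gene (chr1:133382300-133424459, minus strand), differed from these in its H3K27ac. Its 8 members held 30 to 66 tags, and H3K27ac overlapped none of them in young TSA, 2 in young vehicle, 1 in old TSA and none in old vehicle. Beside the members, the young TSA list had 5 H3K9/14ac peaks at the gene, against 4 in young vehicle, 6 in old TSA and 3 in old vehicle.

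Groups here are runs of members, each within 10000 bp of the next. Notch1, the receptor gene of the Notch pathway (chr2:26457902-26503822, minus strand), held the largest group, with 6 members in 16951 bp (chr2:26483690-26500640). They held 46, 42, 48, 82, 169 and 32 tags in order of position. The 169-tag peak (chr2:26492379-26494101, 1723 bp) was the member with most tags and the widest of the 626, and lay under H3K27ac peaks of 527 tags in young TSA, 636 in young vehicle, 539 in old TSA and 210 in old vehicle. Beside the members, the young TSA list had 5 H3K9/14ac peaks over the gene and its flanks, against 4 in each of the other lists. Near Dll4, a Notch ligand gene, lay a further group of 4 members in 12982 bp (41 to 98 tags). Groups of 5 members lay at Hspa12b, a distant member of the HSP70 family (9761 bp, 28 to 86 tags), at Sox13 and at Niban2.

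**Figure D5:**
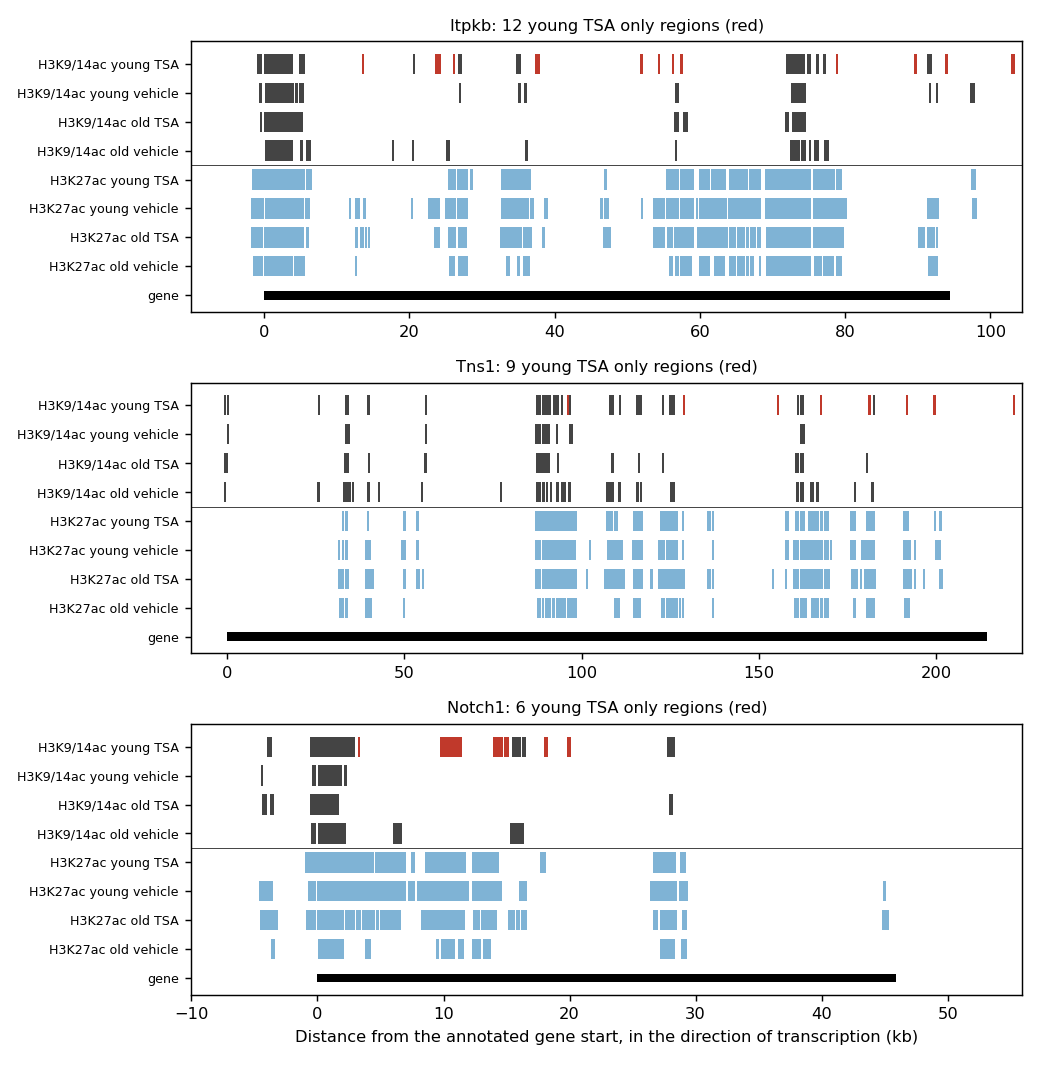
Peaks of the 4 H3K9/14ac and 4 H3K27ac libraries at Itpkb, Tns1 and Notch1, by distance in kb from the annotated gene start in the direction of transcription. Red marks young TSA only regions, dark grey the other H3K9/14ac peaks, blue the H3K27ac peaks and black the gene. The genes were chosen for their 12, 9 and 6 red regions, and blue peaks of several libraries lie under many red ones.

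Beside Notch1 and the gene ends above, the members with most tags included peaks inside genes under H3K27ac of all 4 libraries. The Cry2 member (chr2:92422415-92423609, 137 tags), in a gene of the circadian repressor complex, lay under H3K27ac peaks of 1470 tags in young TSA, 3212 in young vehicle, 1901 in old TSA and 128 in old vehicle. The member in Eng, which encodes the TGF-beta co-receptor endoglin (chr2:32661619-32662694, 136 tags), had 384, 593, 153 and 70 H3K27ac tags in the same order. In Tgm2, the gene of tissue transglutaminase, a 131-tag member (chr2:158140317-158141584) had 552, 570, 796 and 227, and it lay 91 bp from an old TSA peak of H3K9/14ac. Fam178b held a 123-tag member (chr1:36611590-36612676) with 235, 269, 345 and 127. At these genes H3K27ac was lowest in old vehicle, the H3K27ac library with the fewest tags in peaks (679423, against 982087 in young TSA, 1186190 in young vehicle and 1080097 in old TSA). Another 3 of the strongest, in Gata3 (134 tags, chr2:9876887-9877851), in Pak6 (130 tags, chr2:118676882-118677773) and outside genes (127 tags, chr2:36202969-36203950), had no H3K27ac peak in any library. The widest members also included one in Ppp1r16b, a regulatory subunit gene of protein phosphatase 1 (chr2:158670007-158671158, 121 tags over 1152 bp), with H3K27ac peaks of 153 tags in young TSA, 294 in young vehicle and 227 in old TSA, and none in old vehicle.

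Gene lists for this tissue and treatment were read against the 11.6% of protein-coding genes that had a member. Lists hold few genes in the stretch, and shares near that value say nothing of a list. The value is not matched for gene length or for genes with any H3K9/14ac. Lists of unrelated themes lay above it, so higher shares are also only descriptions and were not tested. Among 12 cell cycle genes, 3 had a member (Mybl2 with 151 tags, Bub1 with 65 and Cenpf with 53), and all 3 lay at the promoter window without H3K27ac in any library. The Cenpf member lay 133 bp from an old TSA peak, while those of Mybl2 and Bub1 were 36243 and 38679 bp from the nearest peak of another H3K9/14ac library. H3K27ac marked the ends of 8 of the 12 genes in young TSA, 8 in young vehicle, 7 in old TSA and 5 in old vehicle. The old vehicle H3K27ac list was the shortest in the stretch (4210 peaks). The share over all protein-coding genes is not given, so these counts are not read as a difference between libraries. Expression of these genes is not analysed here.

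Genes of fibrosis and extracellular matrix had 16 members, in 7 of 26 genes. Col5a1, a fibrillar collagen chain gene, had 4 members of 31 to 39 tags, all inside the gene. Tgm2 had 4 inside it, of 26 to 131 tags. Fbn1, the gene of fibrillin 1, had a 57-tag and a 32-tag member, and Sulf2, a heparan sulfate sulfatase gene, a 39-tag and a 41-tag member without H3K27ac. Prelp, which encodes a small leucine-rich proteoglycan, had a 92-tag member under H3K27ac peaks of 1162 tags in young TSA, 1334 in young vehicle, 248 in old TSA and 160 in old vehicle. Angptl2, a secreted angiopoietin-like protein gene, had a 33-tag member.

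In the TGF-beta and BMP list 4 of 13 genes had members, namely the receptor genes Bmpr2 (29 tags) and Acvr1 (79 tags), the co-receptor gene Eng (52, 136 and 63 tags) and the transcriptional repressor gene Zeb2 (46 tags). All 6 of these members lay inside genes and under H3K27ac of young TSA and young vehicle. In the Wnt, Notch and Hedgehog list Notch1 was the 1 gene of 11 with a member. Of 6 FAP identity genes, Twist2 (37 tags, no H3K27ac) and Prrx1 (39 tags) had one. Of 9 adipogenesis genes, the retinoid X receptor genes Rxrg (46 tags, at its promoter window, no H3K27ac) and Rxra (4 members of 44 to 62 tags) had members. Of 9 genes of senescence and secreted products, Igfbp5, which encodes a secreted binding protein of insulin-like growth factors, had 2. Its 45-tag member had H3K27ac peaks of 137 tags in young TSA, 39 in young vehicle, 141 in old TSA and 120 in old vehicle, and its 47-tag member 73 in young TSA, 256 in old TSA and none in either vehicle library.

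Genes of other cell types also had members. Of 14 lymphocyte genes, 4 had one, namely Gata3 (134 and 62 tags), Prkcq (87 tags), Cd247, the zeta chain of the T cell receptor complex (37 and 77 tags), and the co-stimulatory receptor gene Cd28 (26 tags). H3K27ac was absent from Gata3, Prkcq and Cd28 members in all 4 libraries, while the 77-tag Cd247 member had 199 H3K27ac tags in young TSA, 117 in young vehicle, 194 in old TSA and none in old vehicle. Of 11 endothelial genes, 4 had members, namely Nrp2 (48 and 28 tags), the lymphatic regulator Prox1 (60 tags), Egfl7 (48 and 52 tags) and Eng. The Prox1 member lay 24 bp from a peak of another H3K9/14ac library. The 2 Egfl7 members lay under the same H3K27ac peak in young TSA (1085 tags), as they did in young vehicle (1338 tags). Of 10 macrophage genes, Spi1, the gene of PU.1 (49 tags, within 1000 bp of an annotated end), and the phagocytic receptor gene Mertk (55 tags) had one. The Spi1 member had a 60-tag H3K27ac peak in old TSA alone. Of 15 muscle fibre genes Casq1, a calcium-binding protein gene of the sarcoplasmic reticulum, had one (40 tags, no H3K27ac), and of 5 pericyte and smooth muscle genes Tns1. Of 21 Schwann cell and nerve genes, 4 had members, among them Dnm3 (44, 28 and 69 tags), Dnm1 (29 and 41 tags) and the sodium channel gene Scn2a (36 tags).

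Of 30 genes of developmental transcription factors, 6 had a member. Esrrg (40 tags), Nr4a2 (45 tags) and Sp5 (40 tags) had one at a promoter window, and Lmx1b (79 tags) and Hoxd3 (60 tags) had theirs inside the gene away from its ends. Meis2 had a 43-tag member inside the gene and a 35-tag member within 1000 bp of its end. H3K27ac was found in no library at the members of Esrrg, Sp5, Lmx1b and Meis2, while that of Nr4a2 had a 50-tag peak in old TSA alone and that of Hoxd3 had 179 tags in young TSA, 223 in young vehicle, 164 in old TSA and none in old vehicle. Of 11 immediate early and stress genes, Atf3 (52 and 38 tags, no H3K27ac) and Nr4a2 had members. Of 3 genes of acetylation enzymes and readers in the stretch, the bromodomain gene Brd3 had 2 (39 and 41 tags, no H3K27ac). No member lay at any of 11 interferon response genes or of 2 muscle stem cell genes.

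H3K27ac was more frequent at stronger members. Of the 313 members with most tags, 150 had an H3K27ac peak in young TSA (47.9%), against 39.1% of all 626. The 308 without it in any library had a median of 39 tags and a width of 271 bp, and the 152 with it in all 4 libraries had 47 tags and 331 bp. They also differed in place. Of those without, 77 touched a gene end (25%) and 37.3% lay within 5000 bp of a peak of another H3K9/14ac library, against 14 (9.21%) and 61.8% of those with H3K27ac in all 4. The median gap to a region found in all 4 H3K9/14ac libraries was 21480 bp without H3K27ac and 11621 bp with it.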

How the data were processed

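The series measured H3K9/14ac and H3K27ac by ChIP-seq, with input libraries, in FAPs sorted from mdx mice. The 4 input samples are not analysed here. The deposited files used are 8 HOMER peak lists, 1 for each mark and group. Per the file headers, the authors compared each tag directory with itself, and each list gives the tag count of every peak, which is a raw count without normalization for depth. The submitters' processing notes name Bowtie 0.12.7, MACS2, HOMER and build GRCm38, with no role for each. The lists were used over chromosome 1 and chromosome 2 to position 167064301, since each list ends inside an incomplete line and is held only in part. The stretch holds 12.5% to 13.5% of the peaks that the file headers count. H3K9/14ac lists held 426273 to 631446 tags there, and no column of per-sample values was left unused (0 columns).

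Peaks of the 4 H3K9/14ac lists were merged where they overlapped by 1 bp or touched, and classed by the libraries with a peak. Starts were taken as 1-based, since the shortest peak then spans 147 bp in every list. H3K27ac tags at a region are the tags of the whole overlapping peak, and log2 ratios used a pseudocount of 1 tag. Gene ends came from RefSeq GRCm38.p6 genes and promoter windows from RefSeq starts, covering 2825 protein-coding genes and 4539 windows. With 1 library per group no test was made, and shares carry exact intervals that cover counting error only. These intervals treat regions as independent, while 203 of 626 members had another member within 10000 bp. Tags are reads without molecular identifiers and are not independent molecules. Named regions are the 10 with most tags, the 10 widest, those at list genes, the 5 genes with most members and genes tied with the fifth, the 10 strongest at gene ends and the 10 with H3K27ac in young TSA alone. Regions named at the border of the rule, the windows printed and the groups at Dll4, Hspa12b and Niban2 were chosen after their values were seen. So was Prrx1, among members with an H3K27ac peak in young vehicle and none in young TSA. The members at 2 list genes are not reported here. The regions and the 18 gene lists were chosen with earlier results of these data known. Alternatives changed the merging distance, list length, gene end width, overlap, pseudocount and centring. Scripts ran under Python 3.11.15 with pandas 2.3.3, numpy 2.4.6, SciPy 1.17.1 and matplotlib 3.10.9, and were tested on simulated peaks.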

Additional observations from a re-analysis of the deposited data

Results flagged for a closer look

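The share of members with an H3K27ac peak moved in opposite directions with TSA at the 2 ages. In young FAPs it was 39.1% with TSA and 43.9% with vehicle, a difference of -4.79 percentage points. In old FAPs it was 42.3% with TSA and 26.8% with vehicle, a difference of 15.5 points. With 1 library per group this difference between the ages was not tested. Over all 3670 regions the differences were -3.87 points in young and 11.4 points in old FAPs, so the members moved with the rest. The H3K27ac lists ran the same way, with 4325 peaks in young TSA against 5791 in young vehicle, and 5564 in old TSA against 4210 in old vehicle, and the part of list length in these shares was not tested.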

How the results depend on the processing

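The number of members depended most on the lists. Against 626, it was 402 with peaks merged across gaps of up to 1000 bp, 194 with lists of equal length by tags, 133 with the peaks above the median tag count of each list, and 15 when such peaks of the young TSA list were set against the full lists. The share at gene ends was 26.4% with ends taken as 2500 bp and 14.2% with 500 bp. The share with H3K27ac in young TSA was 47.9% in the stronger members, 49.5% in members from lists of equal length, and 34.0% in the 432 members 1000 bp or more from other libraries. H3K27ac in young TSA without young vehicle was found at 33 members (5.27%, against 4.11% of all regions) with H3K27ac lists of equal length, where the opposite was also found at 33 (5.27%, against 3.46%). The median log2 ratio of young TSA over young vehicle was -0.20 without centring and reversed to 0.12 with tags in proportion to the overlap. In the old mice it was 0.28 over members with a peak in both libraries, 0.79 without centring and -0.13 with tags in proportion to the overlap. The share of promoter members without H3K27ac was 97.1% of 34 when members within 1000 bp of other libraries were left out. The cause of these shifts was not tested. Of 26 alternatives, 11 kept the value within its interval or within 1.5 times the count, 13 moved it and 2 reversed it, and 10 were chosen after seeing the data. No replicate could be left out, since each group has 1 library. No paired analysis was possible because the labels give no replicate numbers and each group has 1 library. Depth limits the comparison at weak peaks, since members hold a median of 43 tags.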

Other observations

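The young TSA, old TSA and old vehicle lists reach further along the genome, over chromosome 2 after position 167064301, chromosome 3 and chromosome 4 to position 148075753, where the young vehicle list is not used here. In that further part 577 of 3126 merged regions had a young TSA peak and no peak in old TSA or old vehicle. Gene ends were touched by 112 of them (19.4%, interval 16.3 to 22.9), against 72.9% of the 1611 regions found in all 3 libraries. Promoter windows were touched by 57 (9.88%), and 46 of those 57 had no H3K27ac peak in the young TSA, old TSA or old vehicle lists (80.7%, interval 68.1 to 90.0), against 9.52% of the regions in all 3 libraries at promoter windows. The 72 windows concerned held a median of 18 CpG, against 22 in the windows of regions found in all 3. H3K27ac of young TSA overlapped 34.8% of the 577. Under this same definition with 3 libraries, the stretch of the report gave 689 regions, 16.5% at gene ends, 50 of 58 at promoter windows without H3K27ac (86.2%) and a median of 21.5 CpG. Examples from the further part were the starts of Car14, a membrane carbonic anhydrase gene (128 tags, chr3:95904594-95905579), of Cxxc4, an inhibitor of Wnt signalling (121 tags), of the collagen gene Col25a1 (110 tags) and of Tekt2, a tektin gene of cilia (90 tags). These regions share their 3 libraries with the ones above, and their state in young vehicle was not analysed.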
